A study of Mus musculus with 2 samples.

Results

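The transcripts of 9 tight junction genes were followed in mouse ear epidermis: the claudins Cldn1, Cldn3, Cldn4, Cldn7, Cldn8 and Cldn12, occludin (Ocln), the junctional adhesion molecule F11r and the scaffold protein gene Tjp1. They were chosen by gene name, all 9 had a row in the expression table, and they stand among 26242 named genes. The first library came from C57BL/6 mice with a K14 conditional knockout of the interleukin-9 receptor gene (Il9r, written Il9ra in the labels), and the second from C57BL/6 mice of wild-type genotype. K14 is keratin 14, which is made in basal keratinocytes; the sources used here do not give the Cre line, the deleted part of Il9r, the age of the mice or the number of animals per library. Both groups had received 5% imiquimod cream on the ears for 6 consecutive days, a treatment that gives psoriasis-like inflammation, so there was no untreated reference. Each genotype is represented by 1 library, without replicates. The spread between animals is therefore unknown, and no test was made. Values are FPKM, that is, sequenced fragments divided by transcript length and by library size. The steps between low values put the library size used in the FPKM at about 31300000 fragments in the knockout library and about 24200000 in the wild-type library. This is the sequenced depth only if the libraries were not rescaled to each other, which the sources used here do not say.

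Tight junctions seal the space between neighbouring epithelial cells, and in the epidermis they lie in the granular layer. Claudins are membrane proteins that pair with claudins of the next cell, and the choice of claudins sets which ions and molecules can pass. Occludin and the junctional adhesion molecules are further membrane components, and the zonula occludens proteins tie all of these to actin. Mice without Cldn1 lose water through the skin and die soon after birth.

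The upstream sequences of 3 claudin genes are shown, since Cldn4 and Cldn1 are the most abundant of the 9 transcripts and Cldn3, the neighbour of Cldn4, was higher in the knockout library where Cldn4 was lower. Each run is the 250 bases before the RefSeq start on the gene's own strand (GRCm38.p6, the assembly of mm10), with matches to the AP-1 motif TGANTCA and the Snail-type E-box CAGGTG on either strand in capitals. The Cldn4 window is chr5:134946935-134947184 (minus strand), the Cldn3 window chr5:134985964-134986213 (plus strand) and the Cldn1 window chr16:26371840-26372089 (minus strand).
Cldn4: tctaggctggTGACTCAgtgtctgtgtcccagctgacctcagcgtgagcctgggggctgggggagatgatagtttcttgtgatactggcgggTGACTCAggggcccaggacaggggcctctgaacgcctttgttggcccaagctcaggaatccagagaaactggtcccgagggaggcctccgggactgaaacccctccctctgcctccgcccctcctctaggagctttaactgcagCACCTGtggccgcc
Cldn3: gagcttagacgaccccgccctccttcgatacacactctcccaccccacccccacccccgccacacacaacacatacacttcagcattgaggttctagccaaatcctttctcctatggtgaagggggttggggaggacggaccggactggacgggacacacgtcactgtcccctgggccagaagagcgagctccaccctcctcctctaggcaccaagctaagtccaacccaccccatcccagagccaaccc
Cldn1: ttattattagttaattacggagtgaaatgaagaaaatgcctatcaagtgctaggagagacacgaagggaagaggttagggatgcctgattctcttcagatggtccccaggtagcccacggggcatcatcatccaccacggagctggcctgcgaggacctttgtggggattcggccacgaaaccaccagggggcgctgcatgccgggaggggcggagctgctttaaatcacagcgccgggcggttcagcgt

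The Cldn4 window holds 2 matches to the AP-1 motif, which begin 240 and 158 bases before the start, and 1 match to the E-box, which begins 14 bases before it. The Cldn3 and Cldn1 windows hold neither motif. The RefSeq windows used here cover 8 genes of the set, all but Cldn8, which has no window among them. These 8 genes have 12 windows, since Cldn7, Ocln and Cldn12 have several starts. AP-1 matches stood in 2 of the 12 (Cldn4 and F11r) and E-box matches in 4 of the 12 (Cldn4, F11r and 1 window each of Cldn7 and Ocln). Of all 32851 RefSeq windows of this length, 6.75% hold the AP-1 motif and 17.2% the E-box. The GC box GGGCGG stood in 10 of the 12, against 32.7% of all windows, and the TATA box TATAAA in none of the 12, against 12.4%. The windows of Cldn12 overlap each other, as do those of Ocln, so the 12 share sequence. A GC box of Cldn12 was counted in 2 of them. Counted by gene, all 8 had the GC box in at least 1 window. The grainyhead motif AACCGGTT stood in none of the 12 and in 0.116% of all windows. These matches are descriptions of letters, the motifs do not overlap in the printed windows, and the search was made with the expression values known.

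Cldn4 was the most abundant of the 9 transcripts and was lower in the knockout library. It stood at 217 FPKM in the knockout library, against 334 FPKM in the wild-type library, 34.8% lower in FPKM, with a log2 difference of -0.61 on the log2(FPKM + 1) scale. Cldn4 encodes claudin-4, a claudin of the upper living layers of the epidermis and a receptor for an enterotoxin of Clostridium perfringens. Its gene (ENSMUSG00000047501, minus strand of chromosome 5, 134945119 to 134946934 in GRCm38) is a single exon, and no other GENCODE gene overlaps it. Both values rest on many reads, about 12000 fragments in the knockout library and about 15000 in the wild-type library.

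Cldn1, the claudin on which the skin's water barrier depends in mice, lay at like levels in both libraries. It stood at 105.5 FPKM in the knockout library, against 112.4 FPKM in the wild-type library, a log2 difference of -0.09. The gene (ENSMUSG00000022512, minus strand of chromosome 16, 26356642 to 26371841) has 4 exons. The ratio of Cldn4 to Cldn1, which no scaling of a library can change, was 2.06 in the knockout library and 2.97 in the wild-type library.

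The other 4 claudins were much less abundant, and 3 of them were higher in the knockout library. Cldn12, which encodes a claudin without the usual C-terminal PDZ-binding motif, stood at 10.1 FPKM in the knockout library, against 9.19 FPKM in the wild-type library (log2 difference 0.12). Cldn3, a sealing claudin of many epithelia, stood at 3.46 FPKM in the knockout library, against 1.98 FPKM in the wild-type library. That is a 1.75-fold ratio of the FPKM and a log2 difference of 0.58 with the pseudocount of 1 FPKM, from about 140 fragments in the knockout library and about 60 in the wild-type library; with a pseudocount of 5 FPKM the log2 difference was 0.28. Cldn8, known from the distal tubules of the kidney, stood at 1.27 FPKM in the knockout library, against 1.05 FPKM in the wild-type library (log2 difference 0.15), on about 94 fragments in the knockout library and about 60 in the wild-type library.

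Cldn7, a claudin of the intestine and many other epithelia, was close to the floor of both libraries. It was at 0.17 FPKM in the knockout library, against 0.20 FPKM in the wild-type library, about 7.2 fragments in the knockout library and about 6.6 in the wild-type library, and so was the only gene of the 9 that did not reach 1 FPKM in either library. A difference in Cldn7 was not detectable at this depth. The other 8 reached 1 FPKM in both libraries. The order of all 9 levels was the same in both: Cldn4, Cldn1, F11r, Tjp1, Ocln, Cldn12, Cldn3, Cldn8 and Cldn7. Without replicates it cannot be said which neighbours in this order differ, and Tjp1, Ocln and Cldn12 lay close together.

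**Figure D1:**
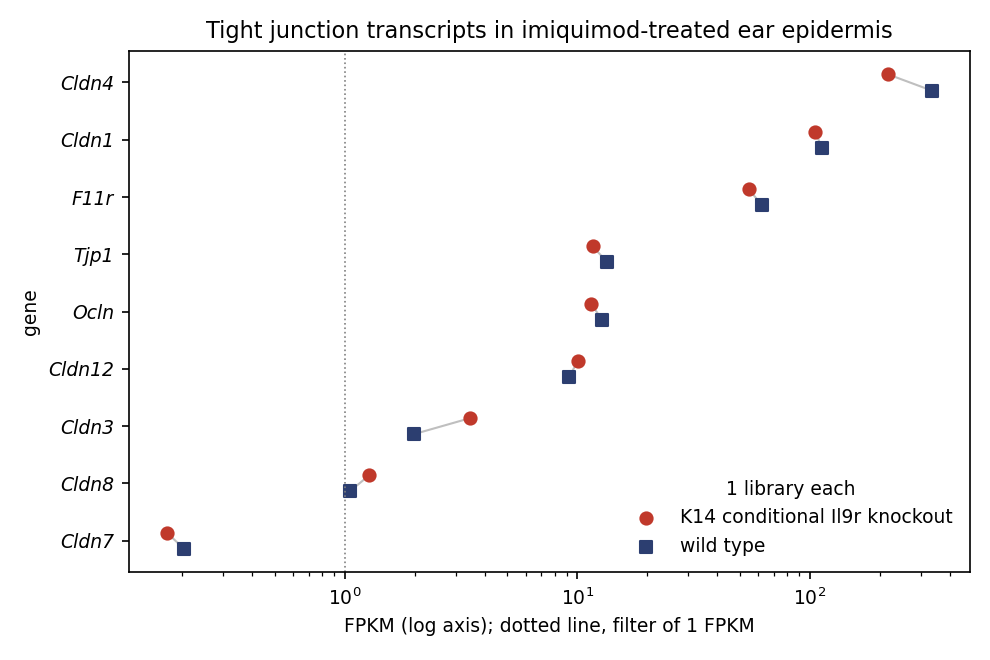
FPKM of the 9 tight junction genes on a log axis, with a circle for the knockout library and a square for the wild-type library. Cldn4 lies at 217 FPKM in the knockout library, against 334 FPKM in the wild-type library; Cldn3 lies at 3.46 FPKM in the knockout library and 1.98 FPKM in the wild-type library. The level order of the genes is the same in both.

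Summed over the 6 claudins, the FPKM came to 338 in the knockout library and 458 in the wild-type library, a ratio of 0.74. Cldn4 made up 64.3% of that sum in the knockout library and 72.8% in the wild-type library, and Cldn1 made up 31.2% in the knockout library and 24.5% in the wild-type library. Cldn12, Cldn3, Cldn8 and Cldn7 held the rest, led by Cldn12 at 2.98% in the knockout library and 2.01% in the wild-type library. Cldn3 took 1.02% of the claudin sum in the knockout library and 0.43% in the wild-type library. Without Cldn4 the sum of the other 5 was 120.5 FPKM in the knockout library, against 124.9 FPKM in the wild-type library, so nearly all of the lower total lay in Cldn4.

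**Figure D2:**
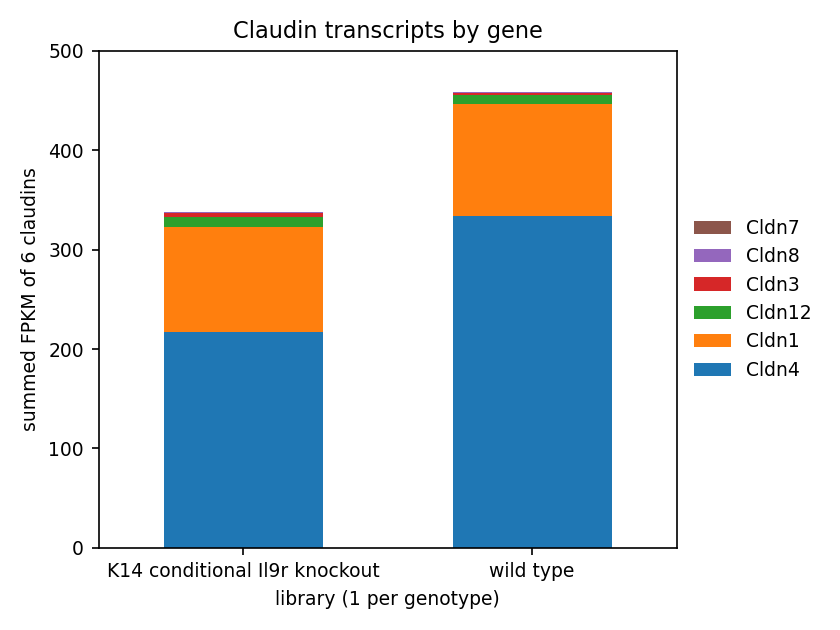
Stacked FPKM of the 6 claudins in the knockout library (left) and the wild-type library (right), 1 library each, with a colour per gene. The Cldn4 block is 217 FPKM high in the knockout library and 334 FPKM in the wild-type library, while the Cldn1 block is 105.5 FPKM in the knockout library and 112.4 FPKM in the wild-type library.

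Occludin, the adhesion molecule and the scaffold were each slightly lower in the knockout library. Ocln (ENSMUSG00000021638, chromosome 13, 100496507 to 100552718), a membrane protein of the tight junction strands, stood at 11.5 FPKM in the knockout library, against 12.7 FPKM in the wild-type library (log2 difference -0.14). F11r (ENSMUSG00000038235, chromosome 1, 171437535 to 171464603), which encodes junctional adhesion molecule A, an immunoglobulin-like protein at the cell border, stood at 54.6 FPKM in the knockout library, against 62.0 FPKM in the wild-type library (-0.18). Tjp1 (ENSMUSG00000030516, chromosome 7, 65296165 to 65527781), which encodes the scaffold ZO-1, stood at 11.6 FPKM in the knockout library, against 13.4 FPKM in the wild-type library (-0.19). These 3 kept nearly the same proportions to each other. The ratio of Ocln to Tjp1 was 0.98 in the knockout library and 0.95 in the wild-type library, and that of F11r to Tjp1 was 4.69 in the knockout library and 4.61 in the wild-type library. The rows of Tjp1 and Ocln include transcripts assembled from the reads beside their RefSeq transcripts, and 3 small GENCODE loci lie inside Tjp1.

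None of the 8 genes that passed 1 FPKM was 2-fold apart; 3 were higher and 5 lower in the knockout library, and their median log2 difference was -0.12. Of all 11886 genes tested, 0.757% were at least 2-fold apart, 0.412% higher and 0.345% lower, so a count of 0 among 8 is near the background. At 1.5-fold, a log2 difference of 0.585, the count was 1, Cldn4, where 2.75% of all genes passed. Cldn4 and Cldn3 both lay near that limit, and which of them passed turned on the scaling: with the libraries scaled to the same upper quartile Cldn4 was at -0.58 and did not pass, and Cldn3 was at 0.61 and did. Over all genes tested, 5275 were higher and 6610 lower, with a median of -0.02. Among the 895 genes that reached 100 FPKM in at least 1 library, 19 were lower by as much as Cldn4 or more, Cldn4 among them. Of 3199 genes whose higher value lay between 1 and 5 FPKM, 80 were higher by as much as Cldn3 or more, Cldn3 among them. The authors' deposited table gave p = 0.02015 and q = 0.999 for Cldn4, and p = 0.147 for Cldn3; that test sets 1 library against another, with no replicates of a genotype. In the authors' deposited table no gene of the 9 had a q below 0.05, as against 0.0684% of its rows, so a count of 0 among 9 is near the background.

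**Figure D3:**
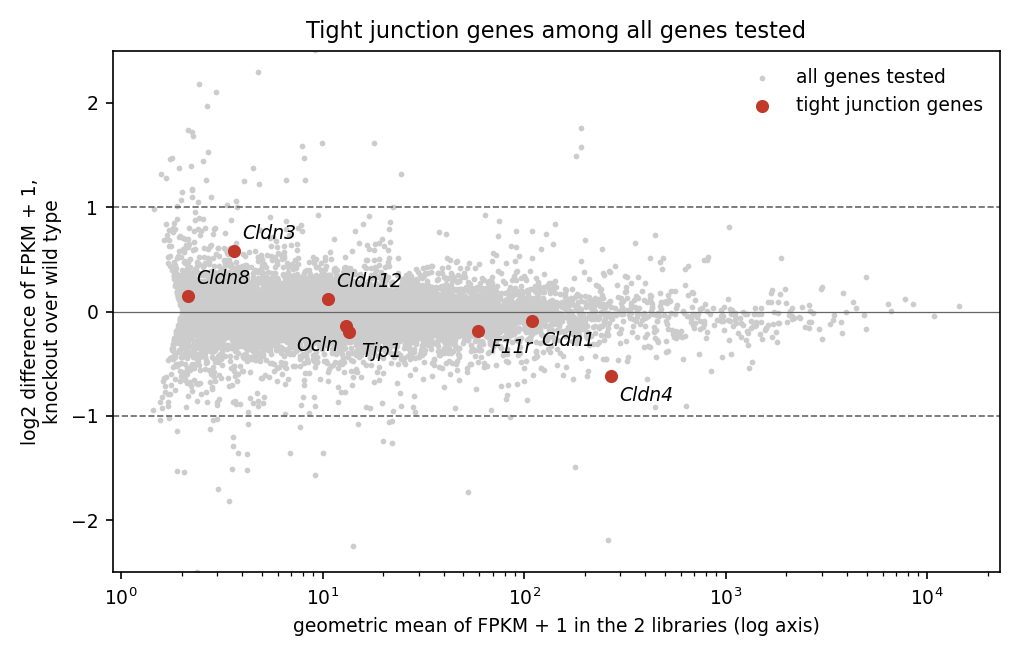
Log2 difference of FPKM + 1, knockout over wild type, against the geometric mean level (log axis) for all genes tested (grey) and the 8 tight junction genes past the filter (red); dashed lines mark 2-fold, and 17 genes lie outside the vertical axis. Cldn4 at -0.61 and Cldn3 at 0.58 lie apart from the other 6, which run from -0.19 to 0.15.

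Cldn4 and Cldn3 are neighbours on chromosome 5 and lay on opposite sides of 0. Their genes are 39.3 kb apart on opposite strands, with no protein-coding gene of GENCODE between them. Cldn3 (ENSMUSG00000070473, plus strand, 134986214 to 134987472) is also a single exon, and an antisense gene, Wbscr25, overlaps it by 40 bases; that gene was listed at 0.012 FPKM in the knockout library and at 0 in the wild-type library. The FPKM of Cldn4 was 62.9 times that of Cldn3 in the knockout library and 168 times in the wild-type library. The longest run of identical bases between the Cldn3 and Cldn4 transcripts was 35 bases, the longest among all 36 pairs of the 9 genes, and the next longest was 18 bases. The nearest genes outside the pair differed less: Mettl27, a methyltransferase-like gene, stood at 2.15 FPKM in the knockout library, against 2.46 FPKM in the wild-type library, and Abhd11, a hydrolase gene, at 30.3 FPKM in the knockout library, against 31.8 FPKM in the wild-type library. Cldn13, which lies next to Mettl27, was listed at 0 in both libraries.

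Among 28 further claudin and claudin-domain genes with a row, 2 passed 1 FPKM and 14 were listed at 0 in both libraries. Cldn23 was more abundant than Cldn12, at 16.8 FPKM in the knockout library, against 14.9 FPKM in the wild-type library (log2 difference 0.16). Cldnd1, which encodes a claudin-like protein and stands in the table under the older name Cldn25, was at 60.0 FPKM in the knockout library, against 71.2 FPKM in the wild-type library (-0.24). Cldn5, the claudin of blood vessel endothelium, was listed at 0 in both.

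Of 6 other membrane proteins of tight junctions past the filter, 5 were lower in the knockout library, where 55.6% of all genes tested were lower. The median log2 difference was -0.24. None was 2-fold apart, where 0.757% of all genes tested were. Lsr, which encodes the angulin that recruits tricellulin to the corners between cells, stood at 63.9 FPKM in the knockout library, against 79.6 FPKM in the wild-type library. Crb3, an apical polarity protein, stood at 33.8 FPKM in the knockout library, against 44.8 FPKM in the wild-type library. Marveld1, of the same protein family as occludin, stood at 36.2 FPKM in the knockout library, against 44.0 FPKM in the wild-type library. Whether its protein lies in tight junctions was not checked here. Cxadr, the coxsackievirus and adenovirus receptor, stood at 51.6 FPKM in the knockout library, against 60.0 FPKM in the wild-type library.

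Of 20 plaque and polarity genes past the filter, 16 were lower in the knockout library, where 55.6% of all genes tested were lower. The median log2 difference was -0.11. Of the 20, 1 passed the filter only through the wild-type library. Pard6b, a subunit of the apical polarity complex, stood at 19.4 FPKM in the knockout library, against 25.9 FPKM in the wild-type library, and Pard6g, of the same family, at 51.5 FPKM in the knockout library, against 59.3 FPKM in the wild-type library. Rab13, a small GTPase of junction traffic, went the other way, at 2.31 FPKM in the knockout library, against 1.59 FPKM in the wild-type library. The most abundant gene of this list was Ybx3, a Y-box protein that binds ZO-1, at 418 FPKM in the knockout library, against 464.5 FPKM in the wild-type library.

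Adherens junction genes, whose products hold neighbouring cells together, were lower for 11 of 13 in the knockout library, and their median was -0.11. Cdh1, which encodes E-cadherin, stood at 83.9 FPKM in the knockout library, against 103.2 FPKM in the wild-type library (log2 difference -0.30). Jup, which encodes plakoglobin, stood at 413 FPKM in the knockout library, against 499.6 FPKM in the wild-type library (-0.27). Ctnna1, which encodes alpha-catenin, stood at 65.3 FPKM in the knockout library, against 76.8 FPKM in the wild-type library (-0.23), and Ctnnb1, which encodes beta-catenin, at 160.1 FPKM in the knockout library, against 166.9 FPKM in the wild-type library. Together the 4 junction lists had 33 of 41 genes lower, against 55.6% of all genes tested, with small differences throughout: the widest were -0.40 and 0.35, narrower than those of Cldn4 and Cldn3. Of the 41, 1 passed the filter only through the wild-type library, and the genes compared were not matched for level. The lists were chosen with earlier results of these data known. The count was not repeated under other scalings, which shift values by up to 0.034, and some of the lower genes lie closer to 0 than that.

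Genes that act on claudins or tight junctions were mixed, with 6 of 13 higher and 7 lower, where 55.6% of all genes tested were lower. Their median was -0.06. The widest difference among the 6 higher was 0.21, and the genes named below had the widest differences of the list. Snai2, which encodes Slug, a repressor of epithelial genes through E-boxes, stood at 10.4 FPKM in the knockout library, against 15.96 FPKM in the wild-type library (log2 difference -0.57). Spint1, an inhibitor of the protease matriptase, stood at 24.9 FPKM in the knockout library, against 34.05 FPKM in the wild-type library (-0.43). Klf4, a transcription factor required for the skin barrier in mice, stood at 372 FPKM in the knockout library, against 471 FPKM in the wild-type library (-0.34).

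Keratinocyte markers dominated both libraries, with Krt14, a basal keratin, at 8083 FPKM in the knockout library, against 7421 FPKM in the wild-type library. The granular layer list, the layer of the tight junctions, had a median near that of all genes. Its 9 genes had 4 higher and 5 lower, a median log2 difference of -0.03, and sums of 5272 FPKM in the knockout library, against 5396 FPKM in the wild-type library; Lor stood at 3401 FPKM in the knockout library, against 3467 FPKM in the wild-type library. Tgm1, a transglutaminase of that list, lay lower, at 70.1 FPKM in the knockout library, against 93.1 FPKM in the wild-type library (-0.40), and Hrnr, which encodes the filaggrin-like protein hornerin, lay higher, at 86.4 FPKM in the knockout library, against 66.5 FPKM in the wild-type library (0.37). The basal list had a median of -0.01 and the spinous list one of 0.02; after upper-quartile scaling the basal median was 0.02 and the granular median 0.006, so neither has a settled direction. Markers of fibroblasts summed to 2.02 FPKM in the knockout library, against 2.51 FPKM in the wild-type library, and those of endothelial cells to 0.81 FPKM in the knockout library and 1.22 FPKM in the wild-type library. Il9r itself was at 0.011 FPKM in the knockout library, against 0.039 FPKM in the wild-type library, too low to check the genotype.

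Markers of some other cells of the sheet were lower in the knockout library as well. These lists are short, and 55.6% of all genes tested were lower, with a median of -0.02. All 7 Langerhans cell markers had lower values in the knockout library; the median was -0.63, with sums of 470 FPKM in the knockout library, against 708 FPKM in the wild-type library; Cd74, the invariant chain of MHC class II in a row merged with a microRNA gene, was the most abundant, at 248 FPKM in the knockout library and 342 FPKM in the wild-type library. H2-Eb1 differed most (-2.25). Several of the 7 are MHC class II genes, which other cells can also express, so the list does not stand for Langerhans cells alone. Of 8 hair follicle genes 7 were lower, with a median of -0.31, but the sums were 590 FPKM in the knockout library, against 566 FPKM in the wild-type library, most of it Krt79. Several of the lower hair follicle genes had low values in both libraries, and 1 of the 8 passed the filter only through the wild-type library. All 5 melanocyte genes were lower, with a median of -0.23 and sums of 16.3 FPKM in the knockout library and 19.5 FPKM in the wild-type library. Of these 5, 1 passed the filter only through the wild-type library. T cell and sebaceous gland lists were even, with medians of 0.01 and 0.004. In such bulk samples fewer cells of a type and less RNA per cell cannot be told apart, and the part of these cells in the claudin values was not tested.

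**Figure D4:**
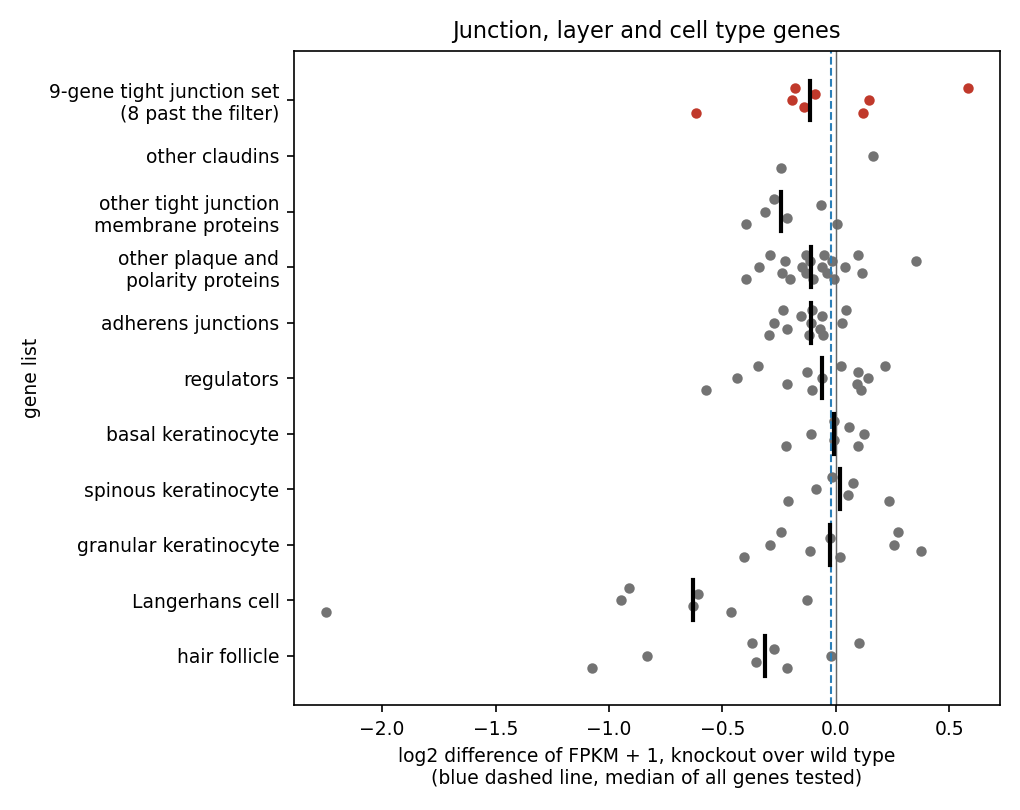
Log2 difference of FPKM + 1, knockout over wild type, with a point per gene past 1 FPKM, a black bar at the median of lists with at least 3 genes and a dashed line at the median of all genes tested (-0.02); 11 lists are shown. The tight junction genes (red) have their median at -0.12 and the widest spread of the junction lists, from Cldn4 at -0.61 to Cldn3 at 0.58, while the Langerhans cell genes have theirs at -0.63.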

How the data were processed

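RNA of ear epidermis from 2 libraries, 1 per genotype, was used; groups came from the genotype labels and table columns were matched by name. The submitters' processing notes name mm10, Cufflinks 2.2.1 and TopHat2 2.0.13; the sources used here do not give options, annotation release, strand use or how the libraries were scaled to each other. Per the file headers, the authors deposited FPKM for each locus. Their own comparison (log2 fold change, a statistic that is a score, p-value and q-value, all as deposited) was copied where printed. A further 3 deposited tables with spreadsheet settings were left aside.

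The 29246 rows included 26264 with both a gene name and a RefSeq transcript, and summing rows that share a name gave 26242 genes. A gene entered if it reached 1 FPKM in at least 1 library. The difference is that of log2(FPKM + 1), knockout minus wild type, which understates changes of low genes. List symbols were matched by RefSeq accession, then by name. Library size was estimated from the lowest step of FPKM times length over single-transcript genes of 3 to 12 kb, with annotated transcript lengths. Fragment numbers are approximate, so no counting intervals are given. Positions are those of GENCODE M21 on GRCm38, and upstream sequences are RefSeq's. Amino acid sequences were not used here. The genes named are the 9, other claudins past the filter, and in each list those with the largest differences and the highest levels (layer and cell lists mostly by their sums), except some that are not reported here; neighbours of Cldn3 and Cldn4, and Cldn5, were named after their values were seen. The 9 genes, the lists and the motifs were chosen with earlier results of these data known. The software was matplotlib 3.10.9, scipy 1.17.1, pandas 2.3.3 and numpy 2.4.6 on Python 3.11.15.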

Additional observations from a re-analysis of the deposited data

How the results depend on the processing

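With other pseudocounts, filters and scalings the median of the tight junction genes stayed between -0.16 (filter of 5 FPKM) and -0.083 (knockout library scaled to the same upper quartile), and it was -0.09 without Cldn4, a comparison added after the data were seen. In 32 recalculated differences of the 8 genes, 3 moved by more than 0.1. A pseudocount of 0.1 FPKM gave 0.77 for Cldn3 and 0.25 for Cldn8, and 5 FPKM gave 0.28 for Cldn3. None changed direction, but none could have, so this says nothing on how firm the directions are. A pseudocount cannot reverse a difference. The scalings shifted values by at most 0.034, less than the smallest difference, -0.09 for Cldn1. The ratio of the claudin sums was 0.75 after upper-quartile scaling. Scalings moved the median of all genes by at most 0.034 on the log2 scale. At 1.5-fold 1 gene of the set, Cldn4, was counted in place of 0. At that limit, in settings added after the data were seen, the count was 2 (Cldn4 and Cldn3) with a pseudocount of 0.1 FPKM and with centring on the median gene, 1 (Cldn4) with 5 FPKM and 1 (Cldn3) with upper-quartile scaling. The basal median, -0.009, was 0.014 after centring and 0.025 after upper-quartile scaling, and the granular median, -0.03, was 0.006 after upper-quartile scaling; no other list median changed sign.

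Over all genes, 49 were 2-fold higher and 41 lower. A pseudocount of 0.1 FPKM gave 100 higher and 103 lower, a pseudocount of 5 FPKM gave 16 of each, and a limit of 1.5-fold gave 156 higher and 171 lower; a filter of 5 FPKM left 24 higher and 28 lower, and counting each named row alone gave 53 higher and 45 lower. With a pseudocount of 0.1 FPKM the Langerhans median was -0.76 and the hair follicle median -0.42; with 5 FPKM the hair follicle median was -0.15 and the melanocyte median -0.10. Without the filter the median of other tight junction membrane proteins was -0.054. No paired analysis was possible because each genotype has 1 library, and for the same reason no replicate could be left out. Depth limits Cldn7, Cldn8 and Cldn3, with Cldn7 the lowest in fragments.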
